A study of Rattus norvegicus with 2 samples.

Results

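The miR-30 family was followed in an injured and an uninjured rat carotid artery. Its members here are the 6 array features rno-miR-30a, rno-miR-30b-5p, rno-miR-30b-3p, rno-miR-30c, rno-miR-30d and rno-miR-30e, chosen by name among 350 rat miRNA features, with names ending in an asterisk left out. The injured group was a carotid artery taken 10 days after balloon injury, and the uninjured group was a carotid artery without injury, both from male Sprague-Dawley rats of 250 g. Balloon injury removes the endothelial lining and overstretches the vessel; in the following days smooth muscle cells proliferate and a neointima forms. MicroRNAs (miRNAs) in total RNA were labelled with Cy3 and read on 1 array per group. The number of rats behind each RNA sample, and whether the uninjured artery came from an operated animal, are not stated by the labels.

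MiRNAs of this family guide Argonaute proteins to messenger RNAs through the seed, the bases near the 5′ end that pair with the target. The 5p members share 1 seed, are broadly expressed and are known to repress Snai1, a driver of the mesenchymal programme, the matrix-inducing factor Ctgf, the Notch ligand Dll4 in endothelial cells, and Runx2 in calcifying smooth muscle. Each hairpin yields a 5p and a 3p arm; in this family the 5p arm is generally the abundant guide, and the 3p arms carry other seeds. miR-30b-3p is such a 3p arm, so it belongs to the family by its hairpin and not by its seed.

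Mature sequences from RefSeq (build GRCr8) were matched to 3 of the 6 members and to 3 of the 5 asterisk arms on the array. The 3 members are shown because their shared seed defines the family and their 3′ parts show what the array probes had to tell apart. Capitals mark the seed, bases 2 to 8 from the 5′ end.
rno-miR-30a: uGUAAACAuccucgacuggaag
rno-miR-30e: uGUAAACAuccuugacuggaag
rno-miR-30c: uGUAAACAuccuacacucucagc
rno-miR-384-5p: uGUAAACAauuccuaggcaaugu
miR-30a lies at chr9:33233946-33233967 on the plus strand and miR-30e at chr5:139637504-139637525 on the minus strand. miR-30c is made from 2 hairpins, at chr9:33253695-33253717 on the plus strand and chr5:139634505-139634527 on the minus strand. miR-30a and miR-30e are identical at 21 of 22 positions and differ by C13U, counted from the 5′ end of miR-30a. miR-30c shares the first 12 bases with both and 17 of 22 positions in all. miR-384-5p, of chromosome X, is shown because it carries the same seed and shares the first 8 bases with each of these 3. It is not among the members only because they were chosen by name. It was detected on neither array, with signals of 1 in the injured and 5.04 in the uninjured artery.

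The hairpins of miR-30a and miR-30c-2, which lie next to each other on chromosome 9 in GRCr8 with 19670 bases and no other annotated gene wholly between them, show both arms. Capitals mark the 5p arm and then the 3p arm.
Mir30a: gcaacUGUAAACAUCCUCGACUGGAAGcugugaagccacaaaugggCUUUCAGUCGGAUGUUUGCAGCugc
Mir30c2: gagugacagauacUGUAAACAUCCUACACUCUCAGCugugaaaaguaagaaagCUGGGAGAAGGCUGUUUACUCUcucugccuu
Their 3p arms are the array features miR-30a* and miR-30c-2*.

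The array files give a signal intensity on a linear scale and a flag of 0 or 1. The flag is not defined there and was read here as detection; 7 negative control features had 0 on both arrays. Of the 350 miRNAs, 184 were detected in the injured and 166 in the uninjured artery, and 158 in both. The log2 ratio is injured minus uninjured after each array was scaled by its 75th percentile over those 158 miRNAs, which raised every ratio by 0.09. With 1 array per group there is no replicate error and no test; 2-fold and 1.5-fold serve as descriptive thresholds, and the number of arrays limits the precision.

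All 6 members were detected in both arteries, and their signals differed little between them. miR-30a had a signal of 738 in the injured and 725 in the uninjured artery. After scaling it was 1.08-fold higher in the injured artery, a log2 ratio of 0.12. miR-30e, which differs from miR-30a by 1 base, had signals of 409 in the injured and 376 in the uninjured artery, 1.15-fold higher (log2 ratio 0.21). miR-30d had 200 in the injured and 194 in the uninjured artery, 1.09-fold higher (log2 ratio 0.13). These 3 members thus lay slightly higher in the injured artery with this scaling.

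miR-30c and miR-30b-5p lay slightly the other way. miR-30c had a signal of 465 in the injured and 582 in the uninjured artery, 1.18-fold lower (log2 ratio -0.24). miR-30b-5p had 241 in the injured and 290 in the uninjured artery, 1.13-fold lower (log2 ratio -0.17). The plot of signals on both arrays shows these 5 members far above the undetected range: they stood 33.4 to 124 times above the highest undetected signal of the injured array and 21.9 to 81.9 times above that of the uninjured array.

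**Figure D1:**
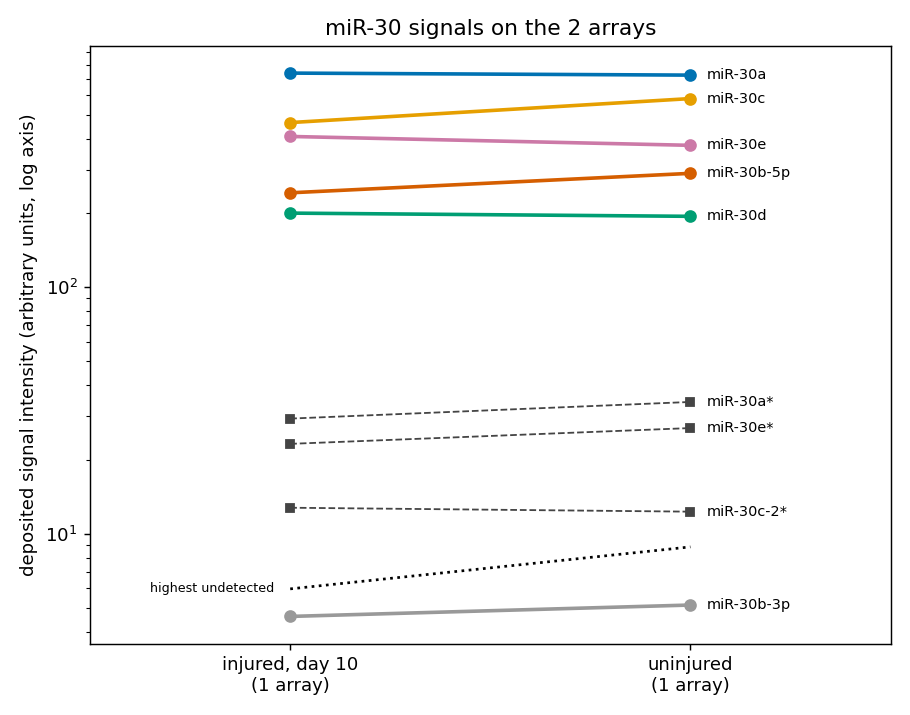
Deposited signal intensity (log axis) of the miR-30 features detected on both arrays, with the injured artery left and the uninjured artery right; solid lines are the 6 members, dashed lines the asterisk arms, and the dotted line joins the highest undetected signal of each array. The 5p members lie between 194 and 738 on both arrays, while miR-30b-3p lies below the dotted line on both.

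The 3p arm miR-30b-3p was dim. Its signal was 4.62 in the injured and 5.14 in the uninjured artery, flagged as detected on both but under the highest undetected signal, which was 5.98 on the injured and 8.84 on the uninjured array. Its log2 ratio of -0.07 therefore rests on signals in the range of undetected features, and no fold is given for it.

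None of the 5p members was at least 2-fold higher in the injured artery, against 12.7% of the 158 miRNAs detected on both arrays, and none was at least 2-fold lower, against 3.8%. All 5 lay within 1.5-fold, as did 64.6% of the 158. miR-30b-3p is left out of these counts because of its dim signals. The median log2 ratio of the 5p members was 0.12, and that of the 158 was 0.14, with quartiles of -0.14 and 0.58. Among the 158 miRNAs, miR-30c had a ratio above 19.0% of them, miR-30b-5p above 22.2%, miR-30a above 45.6%, miR-30d above 48.7% and miR-30e above 54.4%. The family thus stood in the lower to middle part of the ratios.

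Bright miRNAs can vary less than dim ones, so the 5p members were also set beside the 19 other miRNAs whose mean log2 signal lay within their range, a set chosen after the values were seen. Of these 19, 12 were within 1.5-fold (63.2%), 2 were at least 2-fold higher (10.5%) and 3 at least 2-fold lower (15.8%). Their log2 ratios ran from -2.47 for miR-451, a red-cell miRNA, to 1.28 for miR-31. The median absolute deviation of the log2 ratios was 0.09 among the 5 members and 0.34 among the 19. No test of this difference was run.

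**Figure D2:**
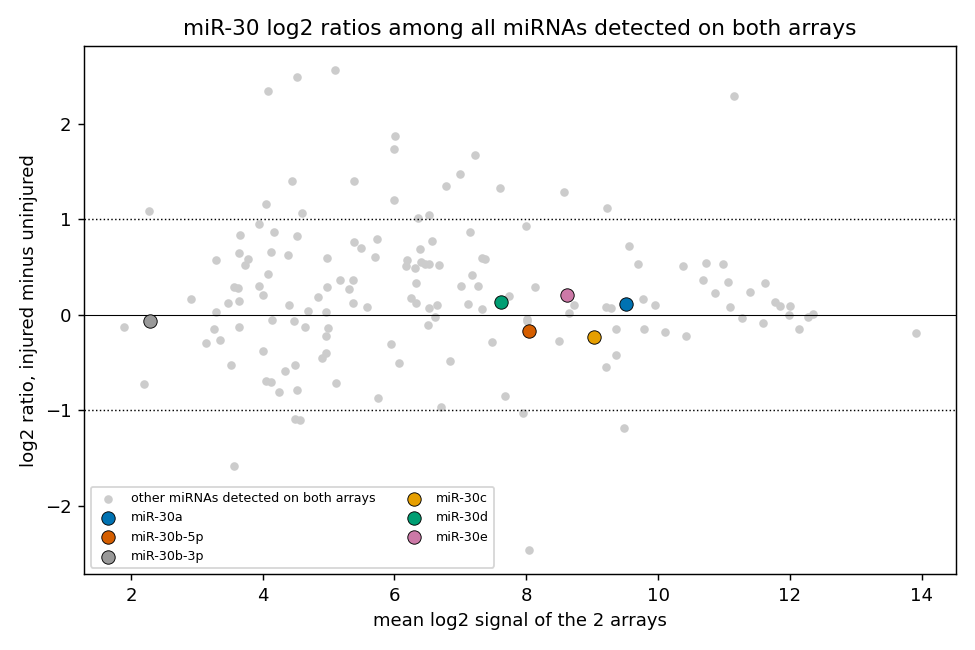
Log2 ratio (injured minus uninjured) against the mean log2 signal of both arrays for the 158 miRNAs detected on both; coloured points are the 6 miR-30 members, grey points the others, and dotted lines mark 2-fold. The members lie between -0.24 and 0.21, well inside the dotted lines, while other miRNAs run from -2.47 to 2.56.

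The family as a whole held a similar part of the array signal in both arteries. The 6 signals summed to 2058 in the injured and 2171 in the uninjured artery, which was 2.11% of the signal of all miRNA features in the injured and 2.27% in the uninjured artery. Of the members, miR-30a held 0.757% in the injured and 0.759% in the uninjured artery, and miR-30c held 0.477% in the injured and 0.61% in the uninjured artery. These shares depend on the brightness of each probe and are not shares of molecules.

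Whether the small ratios read as higher or lower turned on how the arrays were scaled. With alignment at the median of the 158 miRNAs, at the 75th percentile of all miRNA features, or at the 6 control features detected on both arrays, all 6 members were lower in the injured artery. In that order, the median log2 ratio of the 158 miRNAs was -0.305, -0.359 and -0.451 with these scalings. The 6 members include miR-30b-3p, whose signals lie in the undetected range. Without scaling, 3 members were higher and 3 lower, and the median of the 158 was 0.052. miR-30e ranged from -0.38 to 0.21, miR-30a from -0.48 to 0.12 and miR-30d from -0.46 to 0.13 over the 8 scalings tried, of which the authors' deposited ratio table repeats the unscaled values. miR-30b-5p, from -0.77 to -0.17, was negative in every one, and miR-30c, from -0.83 to 0, was negative in all but quantile normalization, where its ratio was 0. miR-30a, miR-30c and miR-30d held ranks 29, 36 and 51 by signal among the 350 features on both arrays, which is why quantile normalization set their ratios to 0.

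None of the 5p members reached 2-fold in either direction under any of the 8 scalings; with the control features aligned, the share of the 158 miRNAs past 2-fold was 4.43% upward and 14.6% downward. Under that scaling 3 of the 5 were within 1.5-fold, against 56.3% of the 158 miRNAs, and miR-30c (-0.83) and miR-30b-5p (-0.77) were lower by more than that. The control features were 1.24-fold to 1.94-fold brighter on the injured array before scaling. Aligning them shifted the 158 log2 ratios by -0.59 in the median, and the 5p members' median of -0.48 stood beside a median of -0.45 for the 158.

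**Figure D3:**
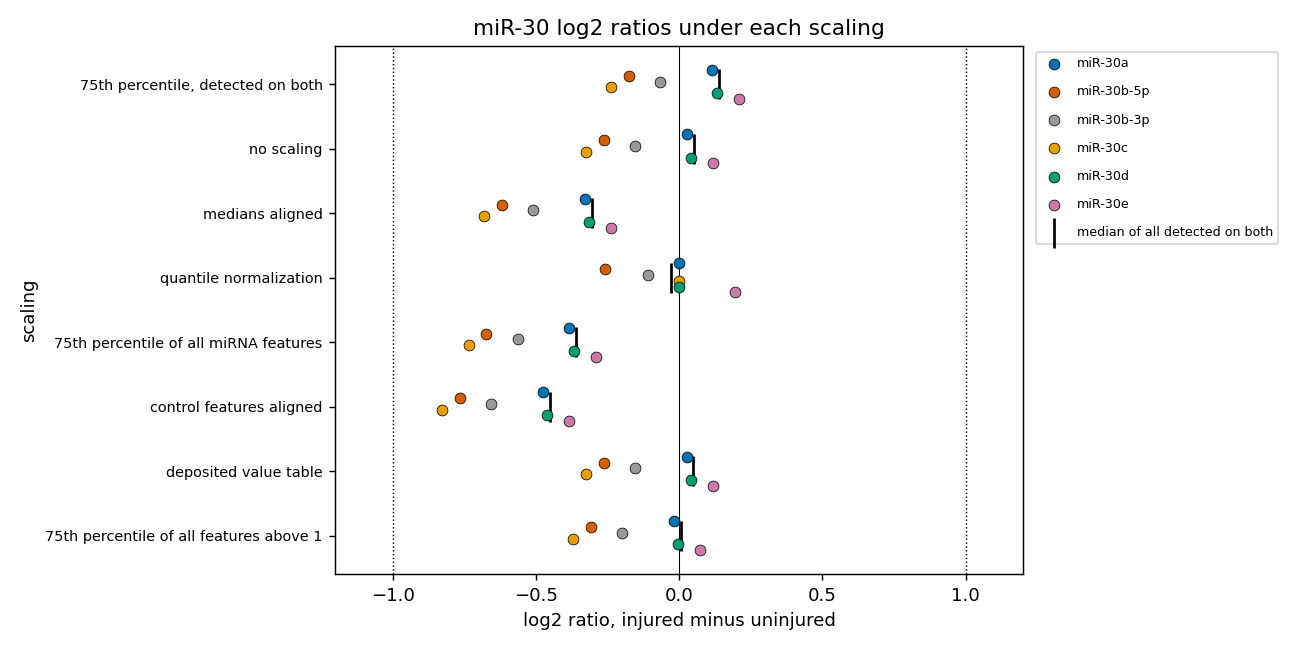
Log2 ratio (injured minus uninjured) of the 6 miR-30 members (points) and the median of the 158 miRNAs detected on both arrays (black bars) under 8 scalings; dotted lines mark 2-fold. The members move with the median from scaling to scaling and stay between -0.83 and 0.21, and miR-30c is the lowest of them in every scaling but quantile normalization.

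Differences between members are free of any uniform scaling. The 5p members spanned 0.44 on the log2 scale, from miR-30c at the low end to miR-30e at the high end, a 1.36-fold difference in response. With uniform scaling they formed 2 sets, miR-30a, miR-30d and miR-30e, which differed from each other by 0.02 to 0.09, and miR-30b-5p and miR-30c, which differed by 0.06. Every pair across these sets differed by 0.29 to 0.44. With quantile normalization the sets were lost: miR-30c differed by 0 from miR-30a and miR-30d and by 0.26 from miR-30b-5p. The sets were drawn after the values were seen, and without replicates none of these differences was tested. miR-30a and miR-30e differ by 1 base, so each probe may also bind the other miRNA, and their near-equal ratios may not be independent measurements. No sequence was matched to miR-30d or miR-30b-5p, so cross-binding could not be judged for them. The near-equal ratios of miR-30d with miR-30a, and of miR-30b-5p with miR-30c, may therefore not be independent either.

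Members were also paired by gene cluster. In the RefSeq annotation Mir30a neighbours Mir30c2, Mir30e neighbours Mir30c1 with 2906 bases between them on chromosome 5, and Mir30b neighbours Mir30d. Neighbouring hairpins are often cut from 1 primary transcript. The log2 ratio of miR-30a exceeded that of miR-30c by 0.35, miR-30e exceeded miR-30c by 0.44 and miR-30d exceeded miR-30b-5p by 0.31 (1.28-fold, 1.36-fold and 1.24-fold). The 7 pairs of members with hairpins apart differed by 0.02 to 0.38, with a median of 0.09, and the 3 neighbouring pairs had a median of 0.35. This contrast was absent with quantile normalization, where the neighbouring pairs differed by 0 (miR-30a and miR-30c), 0.19 (miR-30e and miR-30c) and 0.26 (miR-30d and miR-30b-5p), and both kinds of pair had a median of 0.19. miR-30c is made from both Mir30c1 and Mir30c2, and the array cannot tell which hairpin its signal came from. All 3 neighbouring pairs also cross the sets drawn above from these same ratios. Pairs apart that cross those sets differed by similar amounts: miR-30a and miR-30b-5p by 0.29, miR-30d and miR-30c by 0.37, and miR-30e and miR-30b-5p by 0.38. The contrast thus repeats the sets and shows no separate difference by neighbourhood. The pairs share members and are not independent.

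**Figure D4:**
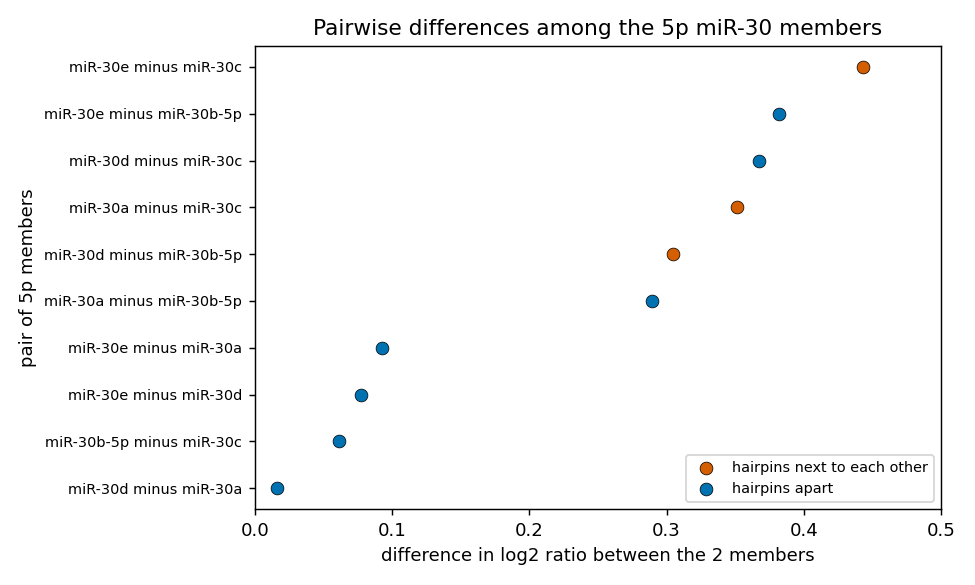
Difference in log2 ratio (injured minus uninjured) for the 10 pairs of 5p members, each pair given as the member with the higher ratio minus the other; orange marks pairs whose hairpins neighbour each other. The 3 neighbouring pairs lie at 0.31 to 0.44. Of the 7 other pairs, 4 lie under 0.1 and the rest at 0.29 to 0.38.

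The asterisk arms of the same hairpins gave low signals on both arrays. miR-30a*, the 3p arm of Mir30a, had a signal of 29.3 in the injured and 34.2 in the uninjured artery (log2 ratio -0.14), and miR-30e* had 23.1 in the injured and 26.8 in the uninjured artery (-0.13). miR-30c-2* had 12.8 in the injured and 12.3 in the uninjured artery (0.14). miR-30d* and miR-30c-1* were detected on neither array. All 3 detected asterisk arms were above the highest undetected signal of both arrays and within 1.5-fold, as were 64.6% of the 158 miRNAs. With the control features aligned miR-30a* (-0.73) and miR-30e* (-0.72) were lower by more than 1.5-fold, and scaling by the 75th percentile of all miRNA features gave -0.64 and -0.62 for them.

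The balance between arms was then compared between the arteries, as the log2 signal of the 5p arm minus that of the 3p arm on the same array. Its level depends on the brightness of the 2 probes, so the change between the arteries is read and not the level. For the miR-30e hairpin it was 4.14 in the injured and 3.81 in the uninjured artery, a change of 0.33. For the miR-30a hairpin it was 4.66 in the injured and 4.40 in the uninjured artery, a change of 0.25. It moved the other way for miR-30c-2, at 5.19 in the injured and 5.57 in the uninjured artery, a change of -0.38, although the miR-30c signal also includes Mir30c1. This change was 0.27 with quantile normalization, so its sign is not settled. The 3p arm miR-30c-2* was also dim, at 2.13 times the highest undetected signal on the injured and 1.39 times on the uninjured array. For miR-30b the 3p arm is in the undetected range, so its change of -0.11 cannot be interpreted. The other 3 changes were under 1.5-fold, and none could be tested.

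The miRNAs most like the family were those with a log2 ratio nearest to the 5p median, measured over 2 arrays. The nearest 5 were miR-98 (0.12, with signals of 140 in the injured and 137 in the uninjured artery), miR-345-5p (0.12), miR-148b-3p (0.12), miR-7a (0.10) and miR-136* (0.13). Of the 149 other miRNAs detected on both arrays, 27 lay within 0.1 of that median, so the likeness is a common one.

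The 5p miR-30 members were also set beside the let-7, miR-29 and miR-26 families, which have 8, 3 and 2 members. Their spread lay between those of let-7 and miR-29. The 8 members of let-7 and miR-98, which restrain growth genes, had a median log2 ratio of 0.09 and spanned 0.26, less than the 0.44 of the 5p miR-30 members. The 3 members of the miR-29 family, known for repressing collagens and elastin, had a median of 0.24 and spanned 0.72. The miR-26 pair lay at -0.22 and -0.08. All of these members were within 1.5-fold with the scaling used for the reported ratios, as were 64.6% of the 158 miRNAs. With the control features aligned, 56.3% of the 158 were within 1.5-fold. That alignment shifted the log2 ratios by -0.59 in the median, which by itself is more than 1.5-fold. Members with negative reported ratios, the miR-26 pair among them, would thus be lower by more than 1.5-fold there. The families differ in size, and their spreads were not tested against each other.

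**Figure D5:**
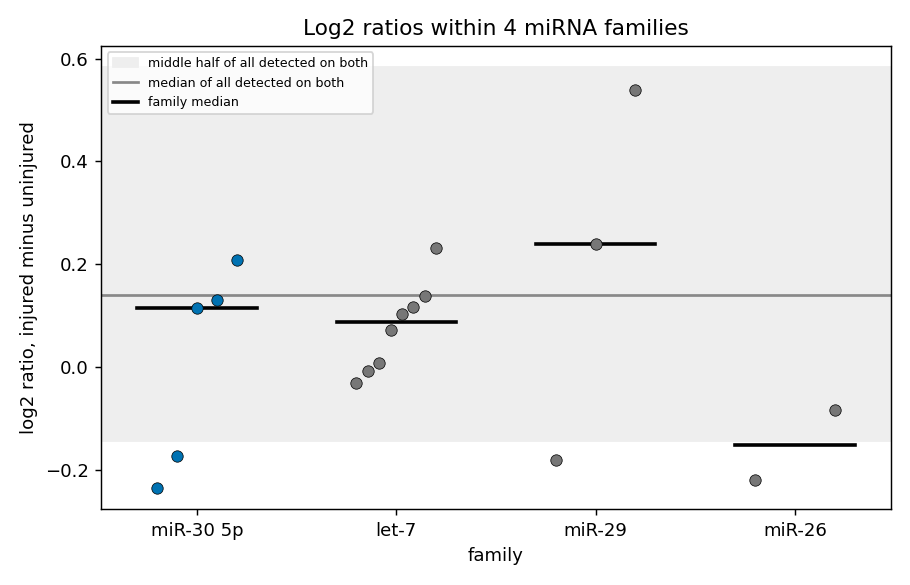
Log2 ratio (injured minus uninjured) of each member of 4 miRNA families (points, black bar for the family median), with the median of the 158 miRNAs detected on both arrays as a grey line and the range between their quartiles shaded. The 5p miR-30 members span -0.24 to 0.21 around a median of 0.12.

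Markers of leukocytes, red cells, contractile smooth muscle and nerve included miRNAs that differed by 2-fold or were detected in 1 artery. No 5p miR-30 member did so. Endothelial markers differed little with the scaling used for the reported ratios, and all marker ratios are given with that scaling only. All 6 leukocyte markers were detected on both arrays and summed to a signal of 636 in the injured and 316 in the uninjured artery, with 3 of them at least 2-fold higher, against 12.7% of the 158 miRNAs. Within this list miR-150, a lymphocyte miRNA, was lower in the injured artery (log2 ratio -0.50) and the log2 ratio of miR-342-3p was 0.19. Both erythroid markers were at least 2-fold lower, against 3.8% of the 158, with a sum of 125 in the injured and 677 in the uninjured artery. The 5 contractile smooth muscle markers summed to 14660 in the injured and 18170 in the uninjured artery. Of them 3 were at least 2-fold lower, against 3.8% of the 158: miR-1 (log2 ratio -1.585), miR-133a (-1.09) and miR-133b (-1.03). Within this list miR-145 (-0.55) and miR-143 (-0.19) did not reach 2-fold with this scaling. Most of the sum was miR-143, with 13990 in the injured and 17010 in the uninjured artery. The endothelial markers miR-126 and miR-126* summed to 615 in the injured and 626 in the uninjured artery. Of 9 nerve markers, 3 were detected in the injured and 7 in the uninjured artery. Over all 350 miRNAs 184 were detected in the injured and 166 in the uninjured artery. Of the nerve markers miR-9 (7.43) and miR-129* (5.77) were under the highest undetected signal of the uninjured array. In the same list miR-219-5p was detected only in the injured artery, with signals of 30.9 in the injured and 6.41 in the uninjured artery, and miR-128 had a log2 ratio of 0.36. The part of these changes in the miR-30 ratios was not tested. In RNA of a whole artery wall, fewer cells of a type and less RNA per cell cannot be told apart.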

How the data were processed

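The authors deposited 1 signal intensity and 1 flag per feature for each of 2 arrays (350 rat miRNA and 22 control features). Labelling used Cy3 with an Agilent reagent, per the labels' protocols; scanner software, background subtraction and normalization are not given in the sources read. The value table deposited by the authors holds a linear ratio; for 349 of 349 shared names it equalled the quotient of injured and uninjured intensity (relative tolerance 1e-05), and it served as an alternative. From the log2 intensities of an array, their 75th percentile among the 158 miRNAs detected on both was subtracted. Each array listed 109 miRNAs at exactly 1. No test was possible with 1 array per group, and precision is limited by the number of arrays. The computation was tested on simulated data without noise, in which equal numbers of miRNAs were raised and lowered, or none. This checked the code and not the choice of scaling. Members and lists were chosen with earlier results of these data known. Named miRNAs are the 6 members, the asterisk arms, miRNAs with the same seed, the 5 with the nearest log2 ratio, 3 other families as groups and the cell type markers; miRNAs named in the signal-matched set were chosen after their values were seen. Tools were Python 3.11.15, numpy 2.4.6, pandas 2.3.3 and matplotlib 3.10.9.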

Additional observations from a re-analysis of the deposited data

How the results depend on the processing

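The direction of the small miR-30 ratios depended on the scaling, while no 5p member differed by 2-fold under any of the 7 alternatives. The median log2 ratio of the 5p members was 0.12 as reported, 0.027 without scaling and from the deposited value table, -0.018 with the 75th percentile of all features above 1, 0 with quantile normalization, -0.383 with the 75th percentile of all miRNA features, -0.329 with the medians aligned and -0.476 with the control features aligned. Counting miR-30b-3p too, whose signals lie in the undetected range, 6 members were within 1.5-fold as reported. This number fell to 4 under median alignment or with scaling by the 75th percentile over every miRNA feature. It was 3 with the control features aligned. Of the 158 miRNAs detected on both arrays, 102 were within 1.5-fold as reported and 89 once the control features were aligned. That count was 99 under median alignment and 96 under the 75th percentile over every miRNA feature, so it fell there too. Differences between features change under quantile normalization alone. There the spread of the 5p members was 0.453. The change in 5p minus 3p was 0.346 for miR-30a, -0.153 for miR-30b, 0.269 for miR-30c-2 and 0.515 for miR-30e. The differences between neighbouring hairpins were 0 for miR-30a minus miR-30c, 0.26 for miR-30d minus miR-30b-5p and 0.194 for miR-30e minus miR-30c; that normalization works on ranks, and miR-30a and miR-30c kept theirs. Summed over the 158 miRNAs detected on both arrays, the members held 2.12% of the signal in the injured and 2.28% in the uninjured artery. No paired analysis was possible because each group had 1 array, and for the same reason no replicate could be left out. No setting measures replicate error.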
